A study of Mus musculus with 5 samples.

Results

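The CD8 T cells of the mouse lung were examined in 5 scRNA-seq libraries, which together held 1614 CD8 T cells among 44772 barcodes that passed the quality limits and 52800 barcodes in all. CD8 T cells recognise peptides on class I MHC through the T cell receptor (TCR) and the CD8 coreceptor, a dimer of the products of *Cd8a* and *Cd8b1*. Naive and central memory cells recirculate through lymph nodes with the help of *Ccr7*, whereas effector and memory cells in tissues such as the lung make granzymes, perforin and chemokines such as *Ccl5*. Type I and type II interferon induce a shared set of antiviral genes in most cells, T cells included.

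The lungs came from adult *Ms4a3-CreER;R26-tdT* mice of a mixed C57BL6 and 129 background that had been given tamoxifen. The lungs were perfused and digested for immune cells. In this strain the *Ms4a3* promoter drives CreER in granulocyte and monocyte progenitors, and recombination switches on the red fluorescent reporter tdT. One library was made from PBS-treated (sham) lungs, and 1 library each from lungs on day 3, day 7, day 14 and day 28 after bleomycin, a DNA-damaging drug instilled into the trachea to injure the lung. All 5 libraries therefore share the genotype, and the 4 injured libraries differ from sham in bleomycin and among themselves in time. Each time point is represented by 1 library, so the effect of time cannot be told apart from that of the mouse or mice and of the preparation behind a library. Differences between time points are therefore described with their counting error and were not tested.

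Members were selected on their raw UMI (unique molecular identifier) counts. A barcode was taken as a CD8 T cell when it held at least 2 UMIs of *Cd3d*, *Cd3e* and *Cd3g* together, at least 1 UMI of *Cd8b1*, none of *Cd4*, *Foxp3*, *Trdc*, *Cd79a* or *Car4*, and at most 1 of *Cd68* and *Mrc1* together. There were 124 such cells in sham, 540 on day 3, 375 on day 7, 355 on day 14 and 220 on day 28. Just inside the limits were 176 cells with exactly 1 *Cd8b1* UMI and 30 with exactly 2 CD3 UMIs. Just outside were 1286 barcodes that met every other condition but had no *Cd8b1* UMI, 39 with 1 CD3 UMI, 97 with 2 UMIs of *Cd68* and *Mrc1*, and 38 that also held *Cd4*.

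The label was checked with *Cd8a*, which the selection did not use but which lies next to *Cd8b1* on chr6 (mm10, chr6:71373427-71379173). *Cd8a* was detected in 84.7% of the sham cells (95% interval 77.1% to 90.5%), 92.0% on day 3, 86.1% on day 7, 80.8% on day 14 and 68.2% on day 28. In conventional CD4 T cells, selected by the mirror of the same conditions, it was detected in 5 of 729 cells (0.686%), and in NK cells in 2 of 264 (0.758%). The day 28 library was thus lowest and the day 3 library highest, and median depth was also highest on day 3. Day 28 was not the shallowest, with a median of 5262.5 UMIs compared with 5046 on day 14. Among cells with 2 or more *Cd8b1* UMIs, *Cd8a* was detected in 73.5% on day 28 and 86.7% on day 14. The cause of the low share on day 28 was not tested. Of the cells with exactly 1 *Cd8b1* UMI, 56.3% had *Cd8a*, compared with 87.8% of those with 2 or more. No barcode sequence of a CD8 T cell occurred as a CD8 T cell in a second library.

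Depth differed between the libraries. The median CD8 T cell held 6215.5 UMIs in sham, 9179 on day 3, 6548 on day 7, 5046 on day 14 and 5262.5 on day 28. The day 7 library contained no barcode under 4624 UMIs, whereas 22 CD8 T cells in sham, 46 on day 3, 152 on day 14 and 80 on day 28 lay under that value. A level in CPM is the number of UMIs of a gene in every 1000000 UMIs, after summing the CD8 T cells of a library, and its interval is the exact 95% Poisson interval. Shares carry exact 95% binomial (Clopper-Pearson) intervals. Both cover counting error only. Because these are 3′ counts with no correction for gene length, levels are compared between libraries or cell sets and not between genes.

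A few genes moved in whole libraries and not in CD8 T cells alone, and their values are given before the results they touch. *Ly6c2*, which encodes a surface protein of memory CD8 T cells and monocytes, was at 320 CPM in sham CD8 T cells, 1163 on day 3, 498 on day 7, 1.41 on day 14 and 350 on day 28. The day 14 library stood apart, with 3 *Ly6c2* UMIs in 355 CD8 T cells and none in its CD4 T cells, NK cells or B cells. *Rpl29*, a ribosomal protein gene, was at 2542 CPM in sham CD8 T cells and between 973 and 1463 on day 3, day 7 and day 28, but at 12.3 on day 14, where it was at 6.35 in CD4 T cells and 6.17 in B cells. The predicted gene *Gm10709* had no UMI in sham CD8 T cells and 700 CPM on day 3, and it was likewise at 0 in sham CD4 T cells, NK cells and B cells. *Gm8730*, *Gm10076* and *Cwc22* also differed between libraries to a like degree in each of these cell sets. Levels of these genes over time were therefore not read as a property of CD8 T cells.

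RNA of other cell types was present in the CD8 droplets to an extent that differed by library. Summed over 9 epithelial markers, the level in CD8 T cells was 667 CPM in sham and 92.1, 13220, 2825 and 593 CPM on days 3, 7, 14 and 28, and *Scgb1a1*, a secreted protein of airway club cells, made up 12330 CPM of the day 7 value. The day 7 library also held the highest sums for 11 dendritic cell markers, 3527 CPM compared with 220 to 669 in the other libraries, and for 8 neutrophil markers, 2087 CPM compared with 255 to 846. All 11 dendritic and all 9 epithelial markers had UMIs on day 7, and the largest dendritic contribution was *Cst3*, at 1993 CPM. The CD4 T cells of that library held 12380 CPM for the epithelial and 5806 CPM for the dendritic list, and its 12 NK cells 1235 and 4884 CPM. Summed over 16 macrophage markers the level was 2404 CPM in sham and 1033, 1444, 3605 and 3547 CPM on days 3, 7, 14 and 28, led by *Lyz2* in every library but day 3, where *Ctss* led. NK cell markers summed to between 280 and 487 CPM, with *Tyrobp* the highest, and gamma delta T cell markers to between 11.3 and 52.0 CPM. Their part in the differences between libraries was not tested.

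CD8 T cells took a larger share of each bleomycin library than of sham, and the share was highest on day 3. They made up 1.34% of the kept barcodes in sham (95% interval 1.12% to 1.60%), 6.75% on day 3 (6.21% to 7.32%), 3.95% on day 7 (3.57% to 4.36%), 4.58% on day 14 (4.12% to 5.07%) and 2.14% on day 28 (1.87% to 2.44%). The intervals of day 7 and day 14 overlap, and the others do not. Among barcodes with at least 4624 UMIs those of sham and day 28 overlapped as well. The shares were 5.03, 2.94, 3.41 and 1.60 times that of sham, in order of time. Because the denominator holds all other immune cells, macrophages among them, the share of barcodes with at least 2 CD3 UMIs was taken as well. It was 18.5% in sham, 38.2% on day 3, 22.4% on day 7, 21.1% on day 14 and 12.2% on day 28. That denominator set no limit on the other selection genes, so it also holds barcodes that fail those conditions. On day 7 it held 1673 barcodes, among them 375 CD8 and 114 CD4 T cells. A further 161 met the other conditions with neither coreceptor. In sham these numbers were 670, 124, 75 and 172. The second share therefore also depends on how many of the failing barcodes a library held. When each library was restricted to barcodes with at least 4624 UMIs, as the day 7 library is, this second share was 24.1%, 40.9%, 22.4%, 21.2% and 20.1% in the same order. Day 3 remained high under both denominators, whereas the other days were above sham by the first denominator and not by the second with the depth limit. There were 1.65 CD8 T cells for each CD4 T cell in sham, 4.29 on day 3, 3.29 on day 7, 1.94 on day 14 and 0.952 on day 28. This ratio covers only barcodes in which a coreceptor was detected. Barcodes that met the other conditions with neither *Cd4* nor *Cd8b1* numbered 172 in sham and 197, 161, 331 and 425 on days 3, 7, 14 and 28. These are shares of captured barcodes and not of the cells of the lung.

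**Figure D1:**
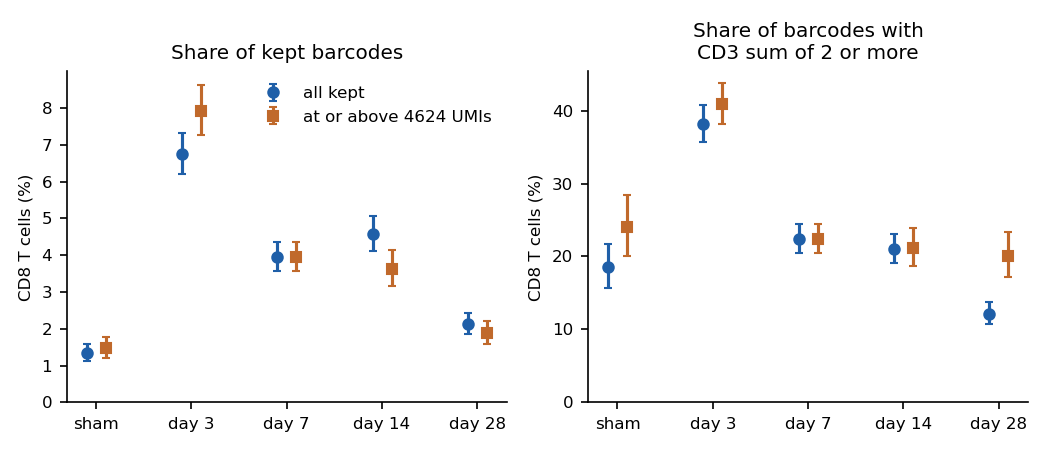
CD8 T cells as a percentage of kept barcodes (left) and of barcodes with at least 2 CD3 UMIs (right), by library, for all kept barcodes (circles) and for those with at least 4624 UMIs (squares); bars are exact 95% binomial intervals. Day 3 is the highest point in both panels, and sham is the lowest on the left but not on the right.

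To describe what sets CD8 T cells apart in this tissue, their summed UMIs were compared with those of 729 conventional CD4 T cells within the same 5 libraries. CD8 T cells had more RNA of cytotoxic and NK receptor genes and less of helper T cell, costimulatory and immediate early genes. Of 7511 genes tested, 262 were higher in CD8 T cells (3.49%) and 352 were lower (4.69%) at an adjusted p under 0.05, by edgeR's quasi-likelihood test with the library as a block and Benjamini-Hochberg adjustment. The genes used to select the cells were left out. In a fit without the library block 41 genes were higher and 55 lower, and with DESeq2 140 were higher and 179 lower. Without the day 3 library the counts were 163 and 219, and without the day 28 library 164 genes were higher.

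Genes were ranked if they held 50 CPM or more in the higher set and differed with 1 sign in every library. Among the 8 of these with the largest increases were 3 NK-type lectin receptors, *Klrc2*, *Klrc1* and *Klrd1*, whose products pair as receptors for the nonclassical class I molecule Qa-1. *Klrd1* was at 345 CPM in sham and 361, 310, 285 and 335 CPM on days 3, 7, 14 and 28 in CD8 T cells, and at 55.5, 29.7, 64.3, 19.95 and 20.4 CPM in CD4 T cells. The lowest CD8 value lay above the highest CD4 value, and the log2 fold change was 3.30 (SE 0.19, adjusted p 6.8e-08). *Klrc2* rose by 4.33 (SE 0.29) and *Klrc1* by 3.95 (SE 0.31) on the log2 scale. *Eomes*, a T-box transcription factor of effector and memory CD8 T cells and of NK cells, was between 29.0 and 103 CPM in CD8 T cells and between 0.973 and 8.16 CPM in CD4 T cells, with a log2 fold change of 4.21 (SE 0.27, adjusted p 1.7e-07).

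The chemokine *Ccl5* (mm10, chr11:83525778-83530518, minus strand), which attracts leukocytes, was at 6083 CPM in sham and 2362, 2755, 7619 and 2482 CPM on days 3, 7, 14 and 28 in CD8 T cells. CD4 T cells held 1637, 279, 899.7, 545 and 255 CPM in the same libraries. All 5 CD8 values exceeded all 5 CD4 values, and the log2 fold change was 2.82 (SE 0.24, adjusted p 2.8e-06). *Ccl4*, a related chemokine, rose by 2.91 (SE 0.21) and was higher in CD8 T cells in 5 of 5 libraries. *Ly6c2* rose by 3.21 (SE 0.29), and its day 14 values were 1.41 CPM in CD8 and 0 in CD4 T cells. *Cd8a* rose by 8.45 (SE 0.22), and its dimer partner *Cd8b1* had been used to select the cells.

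The 8 largest decreases were genes of helper and follicular T cells and others whose T cell role is less defined. *Maf*, a transcription factor of follicular and other helper T cells, was at 8.75 CPM in sham and 12.1, 30.3, 58.5 and 25.7 CPM on days 3, 7, 14 and 28 in CD8 T cells, and at 146, 262, 239, 418 and 325 CPM in CD4 T cells. The 2 sets did not overlap, and the log2 fold change was -3.36 (SE 0.19, adjusted p 6.6e-08). *Tnfrsf4*, which encodes the costimulatory receptor OX40, fell by 4.41 (SE 0.26), and *Cd40lg*, the ligand by which helper T cells activate B cells and macrophages, fell by 3.97 (SE 0.28). *Izumo1r*, which encodes folate receptor 4, fell by 2.99, *Ramp3* by 2.66, *Tesc* by 2.38, *Tbc1d4* by 2.15 and *Trib2* by 2.06. *Tbc1d4* was at 111 CPM in day 7 CD8 T cells compared with 12.5 to 34.0 CPM in the CD8 T cells of the other 4 libraries.

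**Figure D2:**
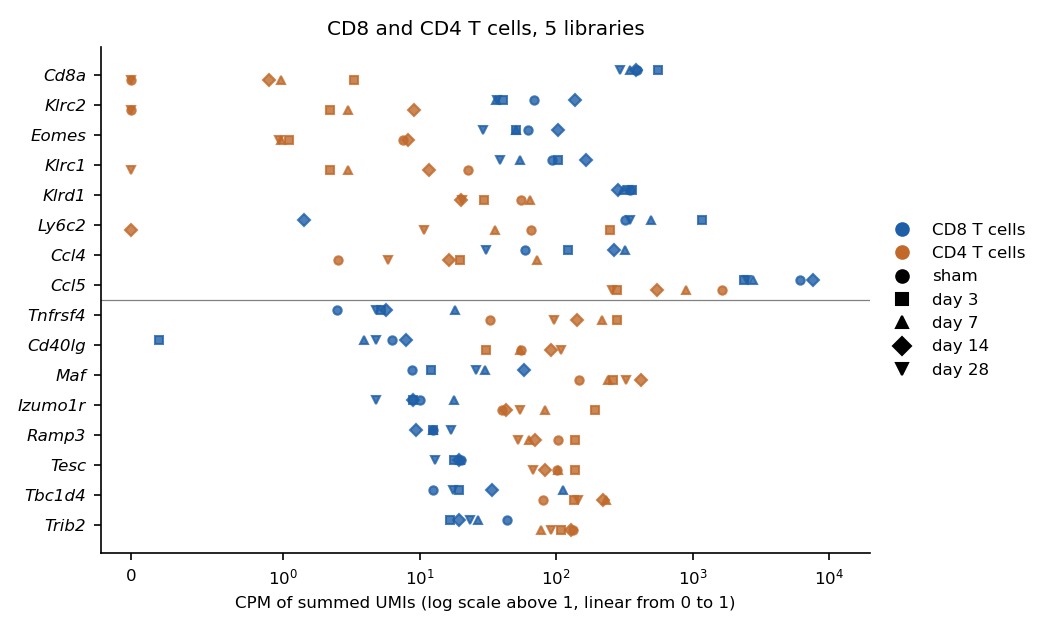
CPM of the 16 named genes in CD8 (blue) and CD4 (orange) T cells, 1 symbol per library, on an axis that is logarithmic above 1 and linear from 0 to 1; the upper 8 genes are higher and the lower 8 lower in CD8 T cells. The colours overlap for *Ly6c2*, *Ccl4* and *Tbc1d4* and for none of the other genes, and *Ly6c2* on day 14 lies near 0 in both.

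By role, the cytotoxic list had 9 of 10 members tested, of which 6 were higher in CD8 T cells and 1 lower, with a median log2 fold change of 1.98 compared with 0.00 over all genes. The granzymes, proteases delivered into target cells, were *Gzmm* (4.81, SE 0.44), *Gzma* (3.29, SE 0.68), *Gzmb* (2.31, SE 0.43) and *Gzmk* (1.42, SE 0.30). *Gzma* was higher in 4 of 5 libraries, since on day 7 it was at 73.1 CPM in CD8 and 136 CPM in CD4 T cells. The granule protein gene *Nkg7* rose by 2.73 (SE 0.21), and *Srgn*, the proteoglycan that packs granules, fell by 0.396 (SE 0.087). Of 7 NK receptor genes tested, 5 were higher and 0 lower, the activating receptor *Klrk1* by 2.01 (SE 0.17) among them. Of 6 terminal effector genes tested, *Gzma*, *Tbx21* (1.21, SE 0.26) and *Cx3cr1* (2.89, SE 0.48, higher in 4 of 5 libraries) were higher. These lists overlap with each other in *Gzma* and were drawn up with earlier results of these data known.

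Of the 12 naive and central memory genes, all tested, 2 were higher and 1 lower, with a list median of -0.04. *Dapl1* rose by 0.96 (SE 0.18) on the log2 scale. *S1pr1*, the receptor by which T cells leave tissue, was at -0.49 (SE 0.14, edgeR adjusted p 0.042) and was lower in 4 of 5 libraries. Of 11 costimulation and activation genes 0 were higher and 6 lower, with *Il2ra* at -2.08 (SE 0.26), *Tnfrsf18* at -1.07 (SE 0.10) and *Cd28* at -0.68 (SE 0.13). Of 11 immediate early genes, which respond within minutes to TCR stimulation and also to tissue dissociation, 0 were higher and 7 lower, *Junb* (-0.66, SE 0.12) and *Fos* (-0.61, SE 0.10) among them. All 10 CD4 lineage genes were lower, including *Zbtb7b* (-1.91, SE 0.23), the factor that fixes the helper fate, and *Runx3* (1.01, SE 0.09), its counterpart in CD8 T cells, was higher. Of 14 proximal TCR genes 1 was higher and 5 lower, and 0 of 13 proliferation genes passed in either direction. Of 10 memory phenotype genes 5 were higher and 2 lower, and of 7 CD8 lineage genes 6 were higher and 0 lower, several of which belong to other lists as well. Of 13 homing receptor genes 2 were higher and 3 lower. Among markers of other cells, 0 of 11 macrophage genes passed, whereas 2 of 6 neutrophil genes, 1 of 6 dendritic genes (*Cst3*), 2 of 3 endothelial genes and 2 of 2 red cell genes were lower in CD8 T cells. The red cell genes differed mainly on day 14, where *Hbb-bs* was at 107 CPM in CD8 and 5013 CPM in CD4 T cells, compared with at most 45.4 CPM in either set of the other libraries. The neutrophil markers summed to 3567 CPM in sham CD4 T cells and 541 in sham CD8 T cells, and their part in the comparison was not tested.

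The comparison with NK cells, which share the cytotoxic machinery but lack a TCR, used the 4 libraries with at least 20 NK cells and so left out day 7. CD8 T cells had more RNA of TCR signalling and naive genes and less of NK receptor, granzyme A and B, perforin and chemokine genes. Of 6851 genes tested, 693 were higher in CD8 T cells (10.1%) and 661 lower (9.65%) in the same edgeR test. Without the library block, 284 were higher and 301 lower, with DESeq2 420 were higher, and without the day 3 library the counts were 423 and 411.

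*Cd6* and *Themis*, which encode a surface receptor of T cells and a regulator of TCR signalling in thymocytes, had no UMI in NK cells. They were at least 45.9-fold and at least 41.2-fold higher in CD8 T cells, taking 3 UMIs over all NK cells as the limit. *Cd5*, an inhibitor of TCR signalling, rose by 6.62 (SE 0.50) on the log2 scale, *Dapl1* by 6.46, *Fam169b* by 6.79, *Dpp4* by 5.61 and *Nsg2* by 5.55. Of 14 proximal TCR genes 11 were higher and 1 lower, with a median of 1.56 compared with 0.03 over all genes. Of 12 naive and central memory genes 9 were higher and 1 lower. The lymph node homing receptor *Ccr7* was at 481 CPM in sham, 511 on day 3, 233 on day 14 and 309 on day 28 in CD8 T cells, and at 0, 54.2, 6.71 and 8.76 CPM in NK cells, a log2 fold change of 4.16 (SE 0.29, adjusted p 5.8e-10). *Il7r*, the survival receptor of resting T cells, rose by 3.02 (SE 0.18).

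In the other direction were the Ly49 and related NK receptor genes *Klra4* (-8.70, SE 0.25), *Klra8* (-8.10, SE 0.30), *Klrb1a* (-7.85, SE 0.33) and *Klri2* (-7.33, SE 0.27). *Khdc1a* had no UMI in CD8 T cells and was at least 235-fold lower, and *Phactr3* (-7.75), the chymase gene *Cma1* (-6.95) and the granzyme inhibitor family gene *Serpinb9b* (-6.74) followed. *Gzma* was at 504 CPM in sham, 648 on day 3, 1499 on day 14 and 171 on day 28 in CD8 T cells, and between 10650 and 14320 CPM in NK cells, a log2 fold change of -4.12 (SE 0.27). *Prf1*, which encodes the pore-forming protein perforin, was at -3.72 (SE 0.21) and *Gzmb* at -2.93 (SE 0.26). *Gzmk* (2.83, SE 0.29) and *Gzmm* (1.79, SE 0.36) were higher in CD8 T cells, so that of 10 cytotoxic genes 2 were higher and 6 lower. All 9 NK receptor genes tested and 6 of 7 secreted factors were lower, whereas 9 of 12 interferon response genes were higher, *Ifi27l2a* (3.34, SE 0.26) and *Ifit3* (2.04, SE 0.25) among them.

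Across the libraries, the interferon response genes of CD8 T cells were highest on day 3. A gene was counted when its CPM was at least 2-fold higher or lower than in sham and at least 100 in 1 of the 2 libraries. On day 3, 78 of 1311 genes at that level were higher than in sham (5.95%) and 15 were lower (1.14%). Of the interferon list, 12 genes reached 100 CPM and all 12 were among those higher, with a median log2 ratio of 2.95 compared with 0.11 over all genes. Several reached 100 CPM only through day 3, *Usp18* and *Rtp4* among them (8.75 and 29.99 CPM in sham), so this count is partly set by the limit. Over the 14 members in the files, with no limit, all 14 were at least 2-fold higher and the median log2 ratio was 2.81. *Ifit3* (mm10, chr19:34583531-34588731, plus strand), an RNA-sensing antiviral protein gene, was at 23.7 CPM in sham and 335, 35.9, 38.7 and 4.83 CPM on days 3, 7, 14 and 28. The day 3 value was 14.1 times that of sham, a log2 ratio of 3.82 (counting interval 3.17 to 4.56). *Isg15*, a ubiquitin-like antiviral protein gene, was at 58.7, 446, 50.4, 60.8 and 14.5 CPM in the same order. Day 3 stood alone at the high end for both genes, and day 28 was lowest.

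Other list members were higher on day 3 as well. *Irf7*, which encodes a transcription factor that amplifies type I interferon, was 10.5-fold higher than in sham, *Ifit1* 12.7-fold, *Usp18*, an inhibitor of interferon receptor signalling, 13.5-fold, and *Bst2*, which tethers budding virus, 7.91-fold. *Ly6a*, a stem cell and memory marker that interferon induces, was at 738 CPM in sham and 3360, 1023, 1072 and 170 CPM on days 3, 7, 14 and 28. The difference was not particular to CD8 T cells. Over the 14 list members in the files, with no lower limit on CPM, all 14 were at least 2-fold higher on day 3 in CD8 T cells and in CD4 T cells, and 13 in NK cells and in B cells. The median ratios were 7.00-fold in CD8 T cells, 8.16-fold in CD4 T cells and 9.51-fold in B cells. On day 28 the median in CD8 T cells was 0.374 of the sham level and 7 of the 14 were at least 2-fold lower, compared with a median of 0.437 and 8 lower genes in CD4 T cells, and 0.76 and 3 in B cells. In NK cells, 2 of the 14 were at least 2-fold higher on day 28 and 1 was lower. No median is given for NK cells, in which *Ifit1*, *Ifit3*, *Usp18*, *Oas3* and *Mx1* had no UMI in sham or on day 28. A gene with no UMI in a library was set at 3 UMIs in these ratios, and each of the 14 had UMIs in CD8 T cells of sham, day 3 and day 28.

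*Ifit3* UMIs were found in 33.5% of day 3 CD8 T cells (29.5% to 37.7%) when every cell was thinned to 1500 UMIs, compared with 3.23% in sham, 4.80% on day 7, 4.25% on day 14 and 0.913% on day 28. Without thinning the shares were 77.2% on day 3 and 2.27% to 12.0% in the other libraries. Thinning left out 2 cells on day 14 and 1 on day 28. In B cells the same share was 19.2% on day 3 and did not exceed 0.625% elsewhere. The genes with the largest ratios on day 3 were *Gm10709*, the interferon-induced chemokine *Cxcl10* (1.25 CPM in sham and 162 on day 3), the cell cycle gene *2810417H13Rik*, the antiviral gene *Ifitm3* and *Ifit3*. *Cxcl10* and *Ifitm3* were at 833 and 3380 CPM in the macrophages of that library. The genes with the lowest ratios were *Chil3*, *Scgb1a1*, *Ccl6*, *Cwc22* and *Cd9*, of which *Chil3*, *Ccl6* and *Cd9* are highly expressed in alveolar macrophages and *Scgb1a1* in club cells. Each of these 5 was also lower on day 3 in CD4 T cells, NK cells, B cells and macrophages.

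**Figure D3:**
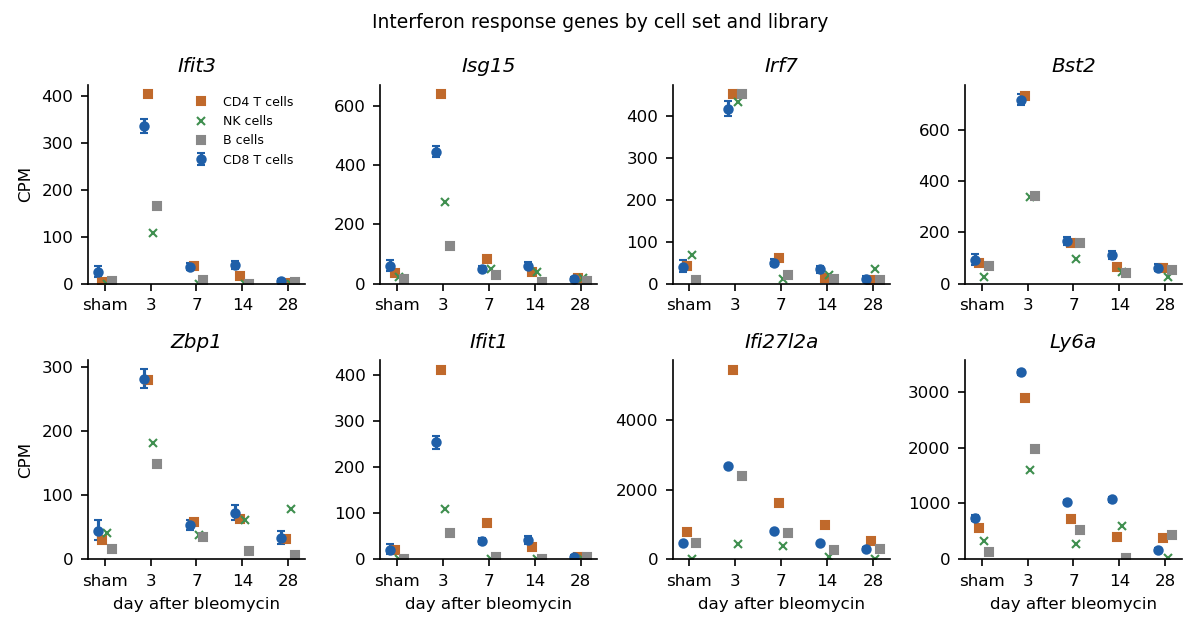
CPM of 8 interferon response genes by library in CD8 T cells (blue circles, with exact 95% Poisson intervals), CD4 T cells, NK cells and B cells; the axes start at 0 and differ between panels. Day 3 is the highest CD8 value in each panel, and the other 3 cell sets are also highest on day 3.

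The sequence before the transcription start of 4 of these genes is shown because they moved together and because interferon-regulated factors are known to bind repeats of GAAA. The 150 bases before the start were read from RefSeq (GRCm38.p6), with matches to GAAANNGAAA on either strand, read on the other strand as TTTCNNTTTC, in capitals and overlapping matches run together. The sequences are written 5′ to 3′ on the strand of the gene. They lie at chr19:34583379-34583528 for *Ifit3* and chr19:34640739-34640888 for *Ifit1*, both on the plus strand, and at chr8:71537473-71537622 for *Bst2* and chr4:156200819-156200968 for *Isg15*, both on the minus strand.
Ifit3: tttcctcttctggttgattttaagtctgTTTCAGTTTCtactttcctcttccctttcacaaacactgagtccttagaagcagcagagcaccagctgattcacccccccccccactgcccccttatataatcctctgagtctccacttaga
Ifit1: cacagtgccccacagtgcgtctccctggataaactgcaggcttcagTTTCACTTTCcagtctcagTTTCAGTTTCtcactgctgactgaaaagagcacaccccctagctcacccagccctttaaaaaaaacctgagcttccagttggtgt
Bst2: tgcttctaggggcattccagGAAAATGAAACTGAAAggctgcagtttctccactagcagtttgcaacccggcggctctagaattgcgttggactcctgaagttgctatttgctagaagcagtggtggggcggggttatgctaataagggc
Isg15: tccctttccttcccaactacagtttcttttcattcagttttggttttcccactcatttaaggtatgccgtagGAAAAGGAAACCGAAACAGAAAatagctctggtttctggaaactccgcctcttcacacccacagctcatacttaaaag
Of the 15 list members 7 were found in the RefSeq table, and 6 of these had a match in the 250 bases before the start (*Ifit1*, *Ifit3*, *Isg15*, *Bst2*, *Oas3* and *Ifi203*), whereas *Irf7* had none. A match was present before 3.46% of the 27025 genes listed there. The motif and the 4 genes were chosen after the values were known, and a match describes the letters only.

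Of the cytotoxic genes, *Gzmb* and *Gzmk* were at least 2-fold higher than in sham on day 3 and day 14 and *Gzma* on day 14, whereas *Gzmm* was highest in sham. *Gzmb* (mm10, chr14:56258838-56262260, minus strand) was at 65.0 CPM in sham and 399.6, 49.4, 202 and 22.5 CPM on days 3, 7, 14 and 28. The values of day 3 and day 14 were 6.15 and 3.11 times that of sham, and CD4 T cells held 7.57 CPM in sham, 191 CPM on day 3 and none on day 14. *Gzmk* was at 52.5, 134.5, 40.2, 168 and 46.7 CPM from sham to day 28, and day 14 was its highest library. *Gzmm* was at 79.97 CPM in sham and 24.9, 12.5, 15.1 and 31.4 CPM on the later days, and *Ctsw* at 321 CPM in sham and 578, 280.5, 276 and 204 CPM. Against sham, *Gzmb* and *Gzmk* reached 100 CPM on day 3 only through that day. The day 3 difference was not particular to CD8 T cells. *Gzmk* in CD4 T cells was at 2.52 CPM in sham and 119.8 on day 3, and *Gzmb* in NK cells at 925 and 2671 CPM. In thinned cells, *Gzmb* was found in 7.26% of CD8 T cells in sham (3.37% to 13.3%), 17.8% on day 3 (14.6% to 21.3%), 3.73% on day 7 (2.06% to 6.18%), 19.8% on day 14 (15.8% to 24.4%) and 0.913% on day 28 (0.111% to 3.26%). Without thinning the shares were 12.9%, 31.9%, 8.80%, 29.9% and 3.18%. In B cells, which do not make granzyme B, the thinned share was at most 1.26%, at median depths of 3232.5 to 6678 UMIs. Among cells with at least 4624 UMIs the day 14 share was 10.3% and the day 3 share 16.4%. With a mitochondrial limit of 10% the day 7 share was lower than that given here, as the closing section gives.

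*Gzma* was at 504 CPM in sham and 648, 73.1, 1499 and 171 CPM on days 3, 7, 14 and 28. Day 14 was highest and day 7 lowest. A few cells carried much of it, since 1 cell held 40.2% of the sham and 1 cell 40.5% of the day 7 UMIs, and without those cells the levels were 304.5 and 43.6 CPM. On day 14 the cytotoxic list had 3 of 8 members higher (*Gzma*, *Gzmb* and *Gzmk*) and 0 lower, against a background of 156 of 1464 genes higher (10.7%) and 20 lower (1.37%). That count is partly set by the limit, since *Gzmb* and *Gzmk* (65.0 and 52.5 CPM in sham) reached 100 CPM only through day 14. *Gzmm*, at 79.97 CPM in sham and 15.1 on day 14, reached the limit in neither library and was not counted as lower. Of the 7 terminal effector genes 3 reached 100 CPM and all 3 were higher. *Cx3cr1* and *Zeb2* reached that limit only through day 14, so this count is partly set by the limit. Outside it, *Tbx21* was at 33.7 CPM in sham and 29.2 on day 14, and *Klrg1* at 41.2 and 48.6. *S1pr5* was at 16.2 and 36.3 CPM and *Prdm1* at 12.5 and 33.5. *Cx3cr1*, a chemokine receptor of effector cells that patrol vessels, was at 30.0 CPM in sham and 13.9, 9.88, 122 and 16.1 CPM on days 3, 7, 14 and 28, and day 14 was 4.07 times sham. *Zeb2*, a factor that promotes terminal effector differentiation, was 3.29-fold, the NK receptor gene *Klre1* 3.79-fold and *Klrk1* 2.41-fold higher on day 14. *Klrk1* was found in 31.4% of thinned day 14 cells and in 12.0% to 13.2% of cells in the other libraries, and among cells with at least 4624 UMIs in 20.7% on day 14 (15.3% to 26.9%) and 8.82% to 12.0% elsewhere. Without thinning it was found in 44.8% on day 14 and 18.2% to 26.9% elsewhere, and in thinned B cells in at most 4.38%. *Cd44* (2.10-fold) and *Id2* (2.33-fold), genes of memory and effector cells, were also higher on day 14. The CD4 T cells of day 14 had 7.25 CPM of *Cx3cr1*, compared with 5.05 in sham, and no *Gzmb* UMI. Higher on day 14 than in sham in CD4 T cells were *Gzma* (2.52 to 44.4 CPM), *Gzmk* (2.52 to 28.1), *Cd44* (179 to 292) and *Id2* (333 to 491). *Zeb2* (53.0 to 36.3) and *Klrk1* (63.1 to 47.15) were lower. In NK cells *Zeb2* (248 to 523), *Cd44* (165 to 268), *Id2* (605 to 785) and *Klrk1* (1147 to 1281) were higher, and *Cx3cr1* (46.5 to 33.5) and *Klre1* (1023 to 879) lower.

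The genes with the largest ratios on day 14, however, were mostly not T cell genes. *Apoe*, *Spp1* and *Fn1*, which macrophages make, were at 736, 1192 and 162 CPM in CD8 T cells compared with 3.75, 41.2 and 8.75 in sham, and at 11390, 14510 and 2591 CPM in day 14 macrophages. The same 3 genes were higher than in sham in CD4 T cells, NK cells and B cells of day 14. *Cbr2* rested on 1 cell with 91.0% of its UMIs, and *Gm10709* has been described. The lowest ratios were those of *Ly6c2*, *Rpl29*, *Gm8730*, *Gm10260* and *Gm10076*, each of which was also low in the CD4 T cells of that library.

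**Figure D4:**
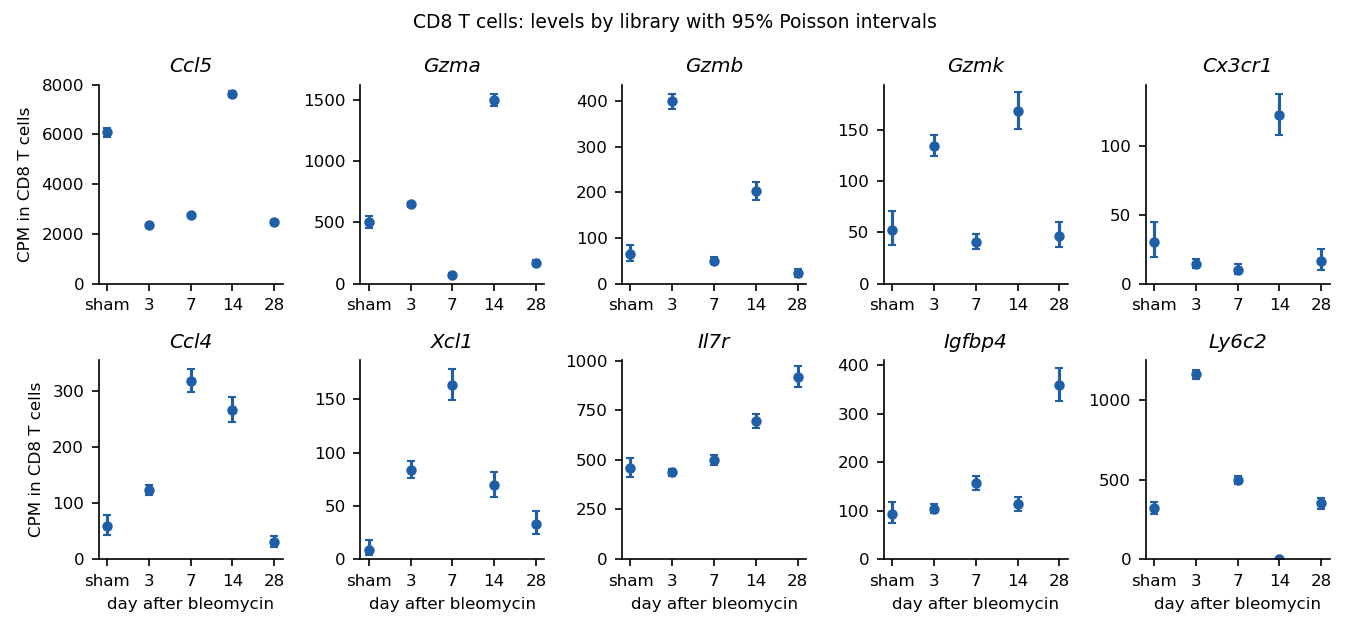
CPM of 10 genes in the CD8 T cells of each library with exact 95% Poisson intervals; axes start at 0 and differ between panels. *Gzmb* is highest on day 3, *Gzma*, *Gzmk*, *Cx3cr1* and *Ccl5* on day 14, *Ccl4* and *Xcl1* on day 7, and *Il7r* and *Igfbp4* on day 28, and *Ly6c2* is near 0 on day 14.

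The chemokine genes *Xcl1* and *Ccl4* and several immediate early genes were at their highest levels on day 7. Against a background of 74 of 1281 genes higher (5.78%) and 22 lower (1.72%), 5 of 10 immediate early genes were higher and 0 lower, with a median log2 ratio of 0.96 compared with -0.03 over all genes. *Egr1*, *Fosb*, *Nr4a1* and *Zfp36* reached 100 CPM only through day 7 (46.2, 90.0, 51.2 and 80.0 CPM in sham), so this count is partly set by the limit. With the mean of CPM per cell, fewer of all genes were counted as higher on day 7, as the closing section gives. *Fos* was 2.16-fold and *Nr4a1*, which reports TCR signalling, 2.40-fold higher than in sham. In CD4 T cells *Fos* was at 348 CPM in sham and 579 CPM on day 7, *Nr4a1* at 141 and 213 CPM, and *Ccl4* at 2.52 and 72.3 CPM. There *Egr1* was at 42.9 and 202 CPM, *Fosb* at 106 and 326 CPM, and *Zfp36* at 171.5 and 341.5 CPM. All 5 immediate early genes counted in CD8 T cells were thus higher on day 7 in CD4 T cells as well. *Xcl1*, a chemokine that attracts cross-presenting dendritic cells, was at 8.75 CPM in sham and 83.6, 163, 69.3 and 33.0 CPM on days 3, 7, 14 and 28. It was above sham in each of the 4 bleomycin libraries, and its counting interval on day 7 was 3.17 to 5.54 on the log2 scale. The sham level rested on few UMIs. In NK cells *Xcl1* was at 295 CPM in sham and 664, 376 and 149 CPM on days 3, 14 and 28. In CD8 T cells *Ccl4* was 5.42-fold higher on day 7 and 4.54-fold on day 14, and *Ccl5* was at 0.453 of the sham level on day 7. Of the 5 largest ratios on day 7, *Bpifb1*, *Bpifa1* and *Mgp*, genes of airway epithelium and of stroma, took between 37.3% and 40.6% of their UMIs from 1 cell, and *H2-Eb1*, a class II MHC gene, was also higher in CD4 T cells, NK cells and macrophages, but not in B cells. *Gm10709* was the fifth. The 5 lowest were *Gm8730*, *Gzma*, *Chil3*, *Cwc22* and *Erdr1*.

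On day 28 *Il7r* and *Igfbp4*, genes of resting T cells, were at their highest levels, and some receptors for inflammatory chemokines at their lowest. Of 1245 genes 40 were higher (3.21%) and 35 lower (2.81%). *Il7r* was at 460 CPM in sham and 437, 499, 695 and 919 CPM on days 3, 7, 14 and 28, and *Igfbp4*, a gene of naive T cells, at 93.7, 104, 156, 113 and 360 CPM. Day 28 was highest for both. *Igfbp4* was 3.84-fold higher than in sham and the 1 naive gene of 11 counted as higher, and *Il7r*, at 2.00-fold, fell just short of the limit. Of 10 homing receptor genes 0 were higher and 3 lower, *Ccr2* and *Cxcr3*, receptors for inflammatory chemokines, at 0.207 and 0.351 of sham among them. *Cxcr3* was at 126 CPM in sham and 122, 76.7, 72.6 and 44.2 CPM on days 3, 7, 14 and 28. The remaining named genes of day 28 were *Apoe*, *Spp1*, *Mfge8*, *AY036118* and *Gm10709* at the high end and *Gm8730*, *Gm10076*, *Gm10260* and *Arhgap31* at the low end, and each of them moved the same way in CD4 T cells. So did *Il7r*, at 585 CPM in sham and 1394 CPM on day 28 in CD4 T cells, *Igfbp4*, at 310 and 438 CPM, *Ccr2*, at 55.5 and 27.2 CPM, and *Cxcr3*, at 166 and 38.9 CPM.

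Of the 3 proliferation genes that reached 100 CPM in sham or day 3 CD8 T cells, *Stmn1* and *Hmgb2* were at least 2-fold higher on day 3. The median log2 ratio of the 3 was 1.03, compared with 0.11 over the genes at that level. On day 14, 2 of 3 were at least 2-fold higher, *Pcna* and *Hmgb2*, and on days 7 and 28 none of 2 was. The shares over all genes were 5.95% on day 3, 5.78% on day 7, 10.7% on day 14 and 3.21% on day 28. These counts are few of the 14 list members and partly set by the limit. *Stmn1* reached it only through day 3, and *Pcna*, at 51.2 CPM in sham, 98.8 on day 3 and 106 on day 14, only through day 14. *Stmn1*, a tubulin-binding protein gene of dividing cells, was at 42.5 CPM in sham and 220, 97.8, 96.7 and 50.7 CPM on days 3, 7, 14 and 28, and *Mki67* was 4.53-fold higher on day 3 than in sham. *Top2a*, a DNA topoisomerase gene of dividing cells, was at 10.0 CPM in sham and 77.8 CPM on day 3, and *Birc5*, which encodes survivin, at 5.00 and 67.6 CPM, from 8 and 4 UMIs in sham. NK cells were also higher on day 3 than in sham for *Mki67* (15.5 to 43.9 CPM), *Top2a* (10.3 to 58.1) and *Birc5* (5.17 to 20.7). These NK levels rest on 40, 50 and 19 UMIs over 4 libraries. In CD4 T cells *Birc5* was at 15.1 CPM in sham, 36.3 on day 3 and 99.96 on day 7. In thinned CD8 T cells, 2 or more UMIs of cell cycle genes were found in 0 of 124 sham cells (0% to 2.93%), in 4.44% on day 3 (2.87% to 6.54%), 1.87% on day 7, 2.27% on day 14 and 1.37% on day 28. The day 3 interval overlaps those of sham and of the 3 later days. The thinned shares do not count all such cells, since without thinning they were 4.84%, 11.1%, 6.93%, 5.63% and 4.09%. In thinned B cells the share was at most 1.25%. Among inhibitory receptors, *Pdcd1*, which encodes PD-1, was at 28.7, 76.9, 48.7, 67.0 and 8.04 CPM from sham to day 28, below the 100 CPM limit in each library. Of the tissue residence genes at 100 CPM, 2 of 6 were higher on day 7 (*Xcl1* and *Bhlhe40*) and 2 of 5 on day 14 (*Rgs1* and *Bhlhe40*). *Xcl1* and *Bhlhe40* (8.75 and 60.0 CPM in sham) reached 100 CPM only through those days. On day 3 none of 4 was higher or lower, and on day 28 *Cxcr6* was lower and none was higher. *Cd69* lay between 179 and 275 CPM and *Itgae*, the integrin chain of resident cells in epithelia, between 20.8 and 41.0 CPM. *Zfp683*, the residence factor Hobit, had no UMI in sham, day 14 and day 28 and at most 1.30 CPM in the other libraries.

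*Ccl5* divided the CD8 T cells of each library. At least 3 *Ccl5* UMIs were found in 46.0% of CD8 T cells in sham (37.0% to 55.1%), 43.5% on day 3 (39.3% to 47.8%), 56.8% on day 7 (51.6% to 61.9%), 67.0% on day 14 (61.9% to 71.9%) and 30.9% on day 28 (24.9% to 37.5%). No *Ccl5* UMI was found in 62 of the 124 sham cells and in 38.3%, 30.7%, 24.8% and 60.9% of the cells of the later libraries, which left between 4.03% in sham and 18.1% on day 3 with 1 or 2 UMIs. The share of *Ccl5*-positive cells was highest on day 14 and lowest on day 28. Any *Ccl5* UMI was found in 44.4%, 40.4%, 53.6%, 68.8% and 30.1% of thinned cells, compared with 1.41% to 6.88% in B cells. Among cells with at least 4624 UMIs the thinned share was 41.2% in sham, 37.2% on day 3, 53.6% on day 7, 55.2% on day 14 and 34.3% on day 28, and the intervals of day 7 and day 14 (48.1% to 62.1%) then overlapped. On day 14 the cells with at least 3 *Ccl5* UMIs were shallower than those with none, at a median of 4444 compared with 6299.5 UMIs, and in the other libraries the medians differed less. Within *Ccl5*-positive cells the mean *Ccl5* level was 13220 CPM in sham and 12630 on day 14, but 5592 on day 3, 4827 on day 7 and 7462 on day 28. The level in positive cells depends on where the limit lies, since 3 to 9 UMIs were found in 3 of the 57 positive cells of sham and in 71 of 235 on day 3. At least 10 UMIs were found in 43.5% of sham CD8 T cells, 30.4% on day 3, 43.7% on day 7, 63.1% on day 14 and 25.0% on day 28.

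Naive and cytotoxic genes differed between the cells on either side of this division in each library, whereas the median of the proliferation list lay between -0.25 and 2.80 on the log2 scale and varied in sign. The division was chosen after the values were seen and rests on the same cells, so it is given as a description with no test. All 12 naive and central memory genes were lower in the *Ccl5*-positive cells in each library, with list medians between -1.66 and -0.75 on the log2 scale. *Ccr7* was at 193 CPM with and 725 CPM without *Ccl5* in sham, 306 and 684 on day 3, 357 and 552 on day 7, 85.4 and 478 on day 14, and 276 and 341 on day 28. The difference was widest on day 14, at 5.60-fold, and narrowest on day 28, at 1.24-fold. *Lef1*, a transcription factor of naive T cells, was 1.75-fold to 4.08-fold lower with *Ccl5*. In the other direction, 9 of 10 cytotoxic genes were higher in *Ccl5*-positive cells in 5 of 5 libraries, and *Lamp1* was higher in 4, with list medians between 1.88 and 2.94 on the log2 scale. The levels of *Srgn* in sham were close, at 683 CPM with and 678 CPM without *Ccl5*. *Gzma* was at 1082 CPM with and 12.4 CPM without *Ccl5* in sham, 1255 and 74.9 on day 3, 127 and 2.22 on day 7, 2483 and 8.05 on day 14, and 519 and 0 on day 28. *Klrk1* was 4.26-fold to 22.3-fold higher, *Cxcr6*, a receptor that holds T cells in the airway, 1.66-fold to 4.47-fold, and the integrin chain *Itgb1* 3.51-fold to 5.81-fold. *Itgae* was lower in *Ccl5*-positive cells in 4 libraries and at 24.4 CPM in both sets of cells on day 7. The medians of the 14 interferon response genes lay between 0.28 on day 3 and 1.33 on day 14. *Ifit3* was at 400.3 CPM with and 317 CPM without *Ccl5* on day 3, and at 59.5 and 6.44 CPM on day 14.

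**Figure D5:**
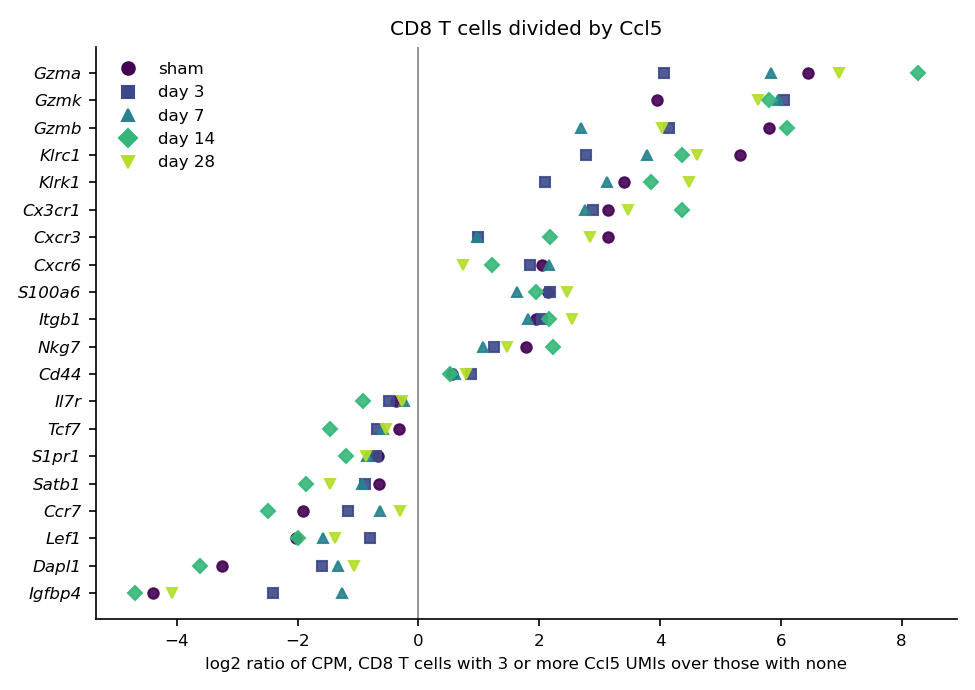
The log2 ratio of CPM between CD8 T cells with 3 or more *Ccl5* UMIs and those with none, for 20 genes, 1 symbol per library; a gene with no UMI on 1 side was set at 3 UMIs there, so that its point is a bound. Naive genes such as *Ccr7* and *Lef1* lie left of 0 and *Gzma*, *Gzmk* and *Klrk1* right of 0 in all 5 libraries.

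The tdT reporter, read here from the added feature RFP, was found in 13.7% of thinned sham CD8 T cells, 9.26% on day 3, 13.1% on day 7, 25.5% on day 14 and 11.9% on day 28. In B cells, which the *Ms4a3* driver should not label, the shares were 10.4%, 5.05%, 13.8%, 26.8% and 12.0%, at median depths of 4016, 5582, 6678, 5474 and 3232.5 UMIs. The intervals of both cell sets overlapped in each library, and on day 3 they ran from 6.95% to 12.0% in CD8 T cells and from 3.26% to 7.42% in B cells. CD4 T cells had 12.7% and NK cells 23.6% on day 3. No labelling of CD8 T cells is read from these shares, and the source of the reporter UMIs was not tested. Without thinning RFP was found in 41.9%, 34.3%, 49.1%, 63.9% and 33.6% of CD8 T cells. TCR variable segments were sparse in these 3′ libraries. A *Trbv* segment was found in 4 sham, 51 day 3, 41 day 7, 25 day 14 and 21 day 28 CD8 T cells, and a *Trav* segment in 11, 79, 32, 40 and 26. The most frequent were *Trbv12-2*, in 17 cells on day 3, *Trav16*, in 12 cells on day 14, and *Trav16n*, in 8 cells on day 14. A *Trbv* segment was read in 3.23% to 10.9% of the cells of a library, and clones were not described.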

How the data were processed

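Lung immune cells of 5 libraries were measured by droplet scRNA-seq with the 10x Chromium 3′ v3.1 kit. The authors deposited filtered gene-by-barcode matrices of raw UMI counts, made with Cell Ranger (version 6.0.0, mm10, per the submitters' processing notes). They held 11386, 8971, 10000, 9755 and 12688 barcodes and 131210167, 89769386, 151234640, 144984156 and 167506186 UMIs in sham and on days 3, 7, 14 and 28. No cell annotation was used. Barcodes were kept if they held between 300 and 8000 genes and between 800 and 60000 UMIs, with less than 15% of UMIs from mitochondrial genes. The study removed doublets with a dedicated package, whereas here doublets were left in, and leaving out those that Scrublet (scanpy 1.11.5) marked, 2 to 16 CD8 T cells in a library, was an alternative.

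The members, gene lists and comparisons were chosen with earlier results of these data known. UMIs were summed per cell set and library and tested with edgeR 4.0.16 (R 4.3.3, quasi-likelihood test, TMM scaling, filterByExpr, Benjamini-Hochberg adjustment over all genes tested), with the library as a block because both cell sets came from the same library. The study compared clusters with a Wilcoxon test over cells, which was not used because cells are not replicates. NK cells had no CD3 UMI and at least 1 UMI each of *Ncr1* and *Klrb1c*, and B cells had at least 2 *Cd79a* UMIs. The edgeR script was tested on simulated data. Genes were named when they had the 8 largest log2 fold changes in a direction among those past the threshold of 0.05, at 50 CPM or more in the higher set and with 1 sign in every library, or the 5 largest ratios to sham among those at least 2-fold and 100 CPM in 1 library. List members could be named as well. A gene at 0 UMIs was set at 3 UMIs for its ratio. Shares of cells with a UMI were taken after thinning each cell to 1500 UMIs. Alternatives were DESeq2 1.42.0, no filter, no block, each library left out, a mitochondrial limit of 10%, a coreceptor minimum of 2 UMIs, the lowest day 7 UMI count as a limit, thinned cells, other denominators and a limit of 50 CPM. Python 3.11.15, numpy 2.4.6, scipy 1.17.1 and pandas 2.3.3 were used. Promoter sequence came from RefSeq (GRCm38.p6) and gene coordinates from GENCODE on mm10. A few members of the gene lists are counted but not reported by name here.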

Additional observations from a re-analysis of the deposited data

Results flagged for a closer look

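Among the 16 genes named between CD8 and CD4 T cells, *Tbc1d4*, which encodes a regulator of glucose transporter traffic, had 1 library far from the other 4. The log2 difference, CD8 minus CD4, was -1.06 on day 7, whereas the remaining values lay between -3.03 and -2.69. The gap was 0.826 of the whole range, above Dixon's 95% critical value of 0.71 for 5 samples. Chance alone sets apart about 1 in 20 such groups, and 16 were looked at. *Tbc1d4* was at 111 CPM in the CD8 T cells and 233 CPM in the CD4 T cells of that library. The cause was not tested.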

How the results depend on the processing

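No named gene changed sign under any alternative run, in the tests or in its ratio to sham, but the order of the CD8 share relative to sham did. Fits without the library block called 41 genes higher and 55 lower in CD8 than in CD4 T cells and 284 and 301 against NK cells, compared with 262, 352, 693 and 661 with it. With DESeq2 the counts were 140 and 179 against CD4 T cells and 420 higher against NK cells, and with no filter 533 genes were higher than in CD4 T cells. With cells thinned to 1500 UMIs they were 90, 119, 305 and 272, where fewer genes were tested, and a coreceptor minimum of 2 UMIs left 219 lower than in CD4 T cells. With 1 library left out, 163 to 259 genes were higher and 219 to 355 lower than in CD4 T cells, and 423 to 614 and 411 to 658 in the same order against NK cells. Of the 614 genes called against CD4 T cells, 316 were also called by DESeq2 and 96 without the block. Of the 32 named results, counted over both comparisons with *Cd8a* in each, 3 lost their call without the block, *Ly6c2* at 2.84, *Ccl4* at 2.78 and *Tbc1d4* at -1.90 on the log2 scale.

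As a share of barcodes with at least 2 CD3 UMIs, CD8 T cells made up 18.5% in sham and 38.2%, 22.4%, 21.1% and 12.2% on days 3, 7, 14 and 28. With the depth limit of day 7 as well, a setting chosen after seeing the data, these were 24.1%, 40.9%, 22.4%, 21.2% and 20.1%. Day 28 thus lay below sham by the first of these and days 7, 14 and 28 by the second, whereas all 4 days lay above sham as a share of kept barcodes. The depth limit alone moved the share of kept barcodes to 7.93% on day 3 and 3.63% on day 14, and a coreceptor minimum of 2 UMIs moved it to 3.69% on day 14 and 1.80% on day 28. With the depth limit alone, day 28 was at 1.88% (1.58% to 2.21%) and sham at 1.48% (1.21% to 1.79%), and these intervals overlapped. With 50 CPM in place of 100 CPM the genes counted as higher and lower than in sham were 157 and 36 on day 3, 169 and 51 on day 7, 386 and 43 on day 14, and 93 and 88 on day 28. The mean of CPM per cell left 40 higher on day 7. Cells with *Ccl5* made up 61.7%, 69.3%, 75.2% and 39.1% on days 3, 7, 14 and 28 without thinning, 47.1% on day 3 and 61.1% on day 7 when thinned to 3000 UMIs, and 55.2% on day 14 with the depth limit. Cells with *Gzmb* made up 31.9%, 8.80% and 29.9% on days 3, 7 and 14 without thinning, 22.0% on day 3 when thinned to 3000 UMIs, 1.98% on day 7 with a mitochondrial limit of 10%, and 10.3% on day 14 with the depth limit. Cells with cycling genes made up 4.84%, 11.1%, 6.93%, 5.63% and 4.09% of the CD8 T cells in sham and on days 3, 7, 14 and 28 without thinning.

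The NK comparison with the depth limit of day 7 was not run, because too few NK cells were left. With 1 library at each time point, the spread between animals of 1 group is not known, and intervals cover counting error only. Sham had the fewest CD8 T cells, 124.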
